A study of Mus musculus with 4 samples.

Results

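The 10 genes described here, Vim, Nes, Fabp7, Slc1a3, Sparc, Ednrb, Plpp3, Pdpn, Rgcc and Pkdcc, are structural and glial genes of radial glia. They were picked by name out of 32285 genes in the deposited tables, with earlier results of these data known. They were followed from ventricular zone (VZ) progenitors through basal progenitors to neurons of the medial ganglionic eminence (MGE), the ventral forebrain zone that gives rise to cortical interneurons and pallidal projection neurons. Single-cell RNA was measured by 10x Genomics chemistry in e14.5 mouse embryos of a C57/BL6 ICR mix background, in 2 libraries labelled St18(-/-), here null, and 2 labelled wildtype, here WT. The null allele came from a conditional St18 allele recombined in the whole animal by the germline driver E2a-Cre, the embryos came from heterozygous parents, and MGE tissue was pooled by genotype before dissociation. The study calls the libraries biological replicates. The labels do not say which embryos went into which library, and the p-values measure the spread between these libraries. St18 transcript did not separate the labels: in neuron-like cells it was at 25.8 and 84.1 CPM (UMIs of a gene scaled to a total of 1000000) in null replicates 1 and 2, against 46.0 and 62.7 in WT replicates 1 and 2, and null replicate 2 thus went against its label. These UMIs are counted over the whole gene and do not tell transcript of the recombined allele from that of an intact one. The shares of several of the 27 clusters did separate the libraries by label, among them 2 neuron-like clusters given beside the Nes values further on. These 2 clusters were singled out in the same data. Separation was not particular to them: the shares of clusters 6 and 18 did not overlap between labels either, while those of clusters 4 and 14 did. The cluster shares therefore do not test the labels. The study describes transcript of this allele as still detectable after recombination, though reduced, and as lower in null neurons. Libraries are named by their labels throughout.

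Radial glia are the neural stem cells of the embryonic brain. They span the wall from ventricle to pia on a long process built on the intermediate filament proteins vimentin (Vim) and nestin (Nes), and they carry proteins that mature astrocytes also use, among them the brain fatty acid binding protein Fabp7 and the glutamate transporter GLAST (Slc1a3). Their daughters become basal progenitors, which divide away from the ventricle, and then neurons, which replace vimentin with neuronal filaments.

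Library totals ran from 70991150 to 92984713 UMIs. After filters for at least 3000 UMIs and at most 10% mitochondrial UMIs, and after the highest doublet scores were taken out, 18267 cells remained, 3758 to 6279 per library. Cells were clustered without the 10 genes and named from other markers, which gave VZ-like cells (428 to 872 per library, named from 9 markers such as the Notch targets Hes1 and Hes5), basal progenitor-like cells (1045 to 2015) and neuron-like cells (2098 to 3246), besides small erythroid-like and microglia-like clusters and 1 unnamed cluster that made up 0.46% to 1.33% of a library. Pairs of libraries shared at most 0.284% of the cell barcodes of the smaller library.

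All 10 genes had an entry among the RefSeq promoters of build GRCm38.p6, which cover 250 bases before and 50 after the start. Words of 4 factors were searched on both strands, since the 10 genes moved together over stages: TGGGAA (Rbpj, the Notch effector), ACAATG (Sox), CAGCTG (an E-box) and TTGGCA (Nfi). TGGGAA was in 2 of the 10 promoters, those of Fabp7 and Pkdcc, and in 25.6% of all 32851 promoters. CAGCTG was in 1 of the 10, that of Sparc, and in 16.3% of all. The Sparc window lies inside the annotated gene and holds only 5 bases before the first exon base in it. The word lies past that base. ACAATG and TTGGCA were in 0 of the 10, against 12.6% and 14.1% of all promoters. The Fabp7 promoter is shown up to the base before the first exon base in its window, and the Pkdcc promoter as the 250 bases before its start, since they hold the same word although this pair had the most negative correlation of the 10 genes within VZ-like cells, with the word in capitals as its reverse complement. Both stretches lie outside the annotated exons of their genes, on the plus strand, at chr10:57784673-57784880 and chr17:83215033-83215282.
Fabp7: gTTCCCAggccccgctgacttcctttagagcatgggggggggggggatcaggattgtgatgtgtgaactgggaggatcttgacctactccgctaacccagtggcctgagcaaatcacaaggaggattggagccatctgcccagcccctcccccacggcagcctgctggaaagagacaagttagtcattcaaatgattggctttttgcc
Pkdcc: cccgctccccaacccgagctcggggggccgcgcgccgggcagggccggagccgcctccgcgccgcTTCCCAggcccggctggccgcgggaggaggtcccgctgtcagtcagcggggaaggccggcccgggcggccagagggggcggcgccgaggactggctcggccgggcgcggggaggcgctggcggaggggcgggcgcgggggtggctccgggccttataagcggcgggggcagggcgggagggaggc
A shared word of 6 letters is a description of these stretches, which differ in base composition: the whole promoter window held 54.0% G and C for Fabp7 and 82.7% for Pkdcc.

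All 10 genes were highest in VZ-like cells among the 3 stages, and lower in basal progenitor-like and again in neuron-like cells, in each of the 4 libraries. The depth of the decline differed by gene. Vim kept 36.9% to 39.4% of its VZ-like level in basal progenitor-like cells, whereas Slc1a3 kept 3.29% to 7.25%. Levels per library are CPM on library totals, a scale on which the median gene was also higher in null, as given further on. Because the classes come from clusters, these values are a description, and the decline between marker gates is given further on.

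Both filament genes fell most gradually. Vim, which encodes vimentin, had VZ-like levels of 1653 and 1328 CPM in null replicates 1 and 2, and of 1345 and 1374 CPM in WT replicates 1 and 2. It stood at 490 to 628 CPM in basal progenitor-like cells and at a mean of 229 ± 19.6 CPM (SD, n = 4) in neuron-like cells, so neuron-like cells kept a median of 15.9% and at most 17.7% of the VZ-like level. Null replicate 1 was highest in VZ-like cells, and the other 3 libraries lay close together there. Nes, which encodes nestin, was at 726 and 643 CPM in VZ-like cells of the null libraries and at 479 and 389 CPM in those of the WT libraries. It kept 24.0% to 27.4% of that level in basal progenitor-like cells and 6.78% to 9.71% in neuron-like cells. Unlike Vim, Nes had its lowest value in WT replicate 2 in all 3 classes.

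The lipid and glutamate genes fell more steeply. Fabp7, which binds long-chain fatty acids in neural progenitors, was at 1820 and 1898 CPM in VZ-like cells of the null libraries and at 2036 and 2374 CPM in those of the WT libraries. Basal progenitor-like cells held 6.86% to 9.41% of that level, and neuron-like cells at most 4.77%. Slc1a3, which clears glutamate from the extracellular space, was at 121 and 167 CPM in VZ-like cells of the null libraries and at 85.0 and 108 CPM in those of the WT libraries. Its median share left in neuron-like cells was the lowest of the 10, in a range of 1.68% to 2.65%.

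Sparc and Pkdcc encode secreted proteins, a matrix-binding glycoprotein and a tyrosine kinase of the secretory pathway. VZ-like Sparc was at 381 CPM in null replicate 1, above the 239 to 247 CPM of the other 3 libraries. Basal progenitor-like cells held 4.74% to 6.94% of the VZ-like level of Sparc. Pkdcc was at 92.5 and 121 CPM in VZ-like cells of the null libraries and at 97.3 and 88.9 CPM in those of the WT libraries, and stood at 7.46% to 8.78% of that in basal progenitor-like cells. From there to neuron-like cells Pkdcc kept 62.0% to 70.1% of the basal progenitor-like level, the highest median of the 10 (63.8%), although in null replicate 2 Fabp7 kept more, 65.9% against 62.1%.

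The 3 membrane proteins shared a middle course. Ednrb, the endothelin receptor type B, was at 215 and 232 CPM in VZ-like cells of the null libraries and at 167 and 172 CPM in those of the WT libraries. Plpp3, a phosphatase that degrades signalling lipids such as lysophosphatidic acid at the cell surface, was at 266 and 260 CPM in the null and 195 and 193 CPM in the WT libraries. Pdpn, the mucin-type glycoprotein podoplanin, was at 124 and 121 CPM in the null libraries and at 108 and 113 CPM in the WT libraries. Basal progenitor-like cells held 11.3% to 14.2% of VZ-like Ednrb, at most 17.8% of Plpp3 and 13.7% to 16.6% of Pdpn, and neuron-like cells between 2.04% and 4.42% of each. Rgcc, a regulator of cell cycle kinases, was at 403 and 331 CPM in VZ-like cells of the null libraries and at 477 and 450 CPM in those of the WT libraries. It lost more at the first step, to 4.75% to 5.82% in basal progenitor-like cells.

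**Figure D1:**
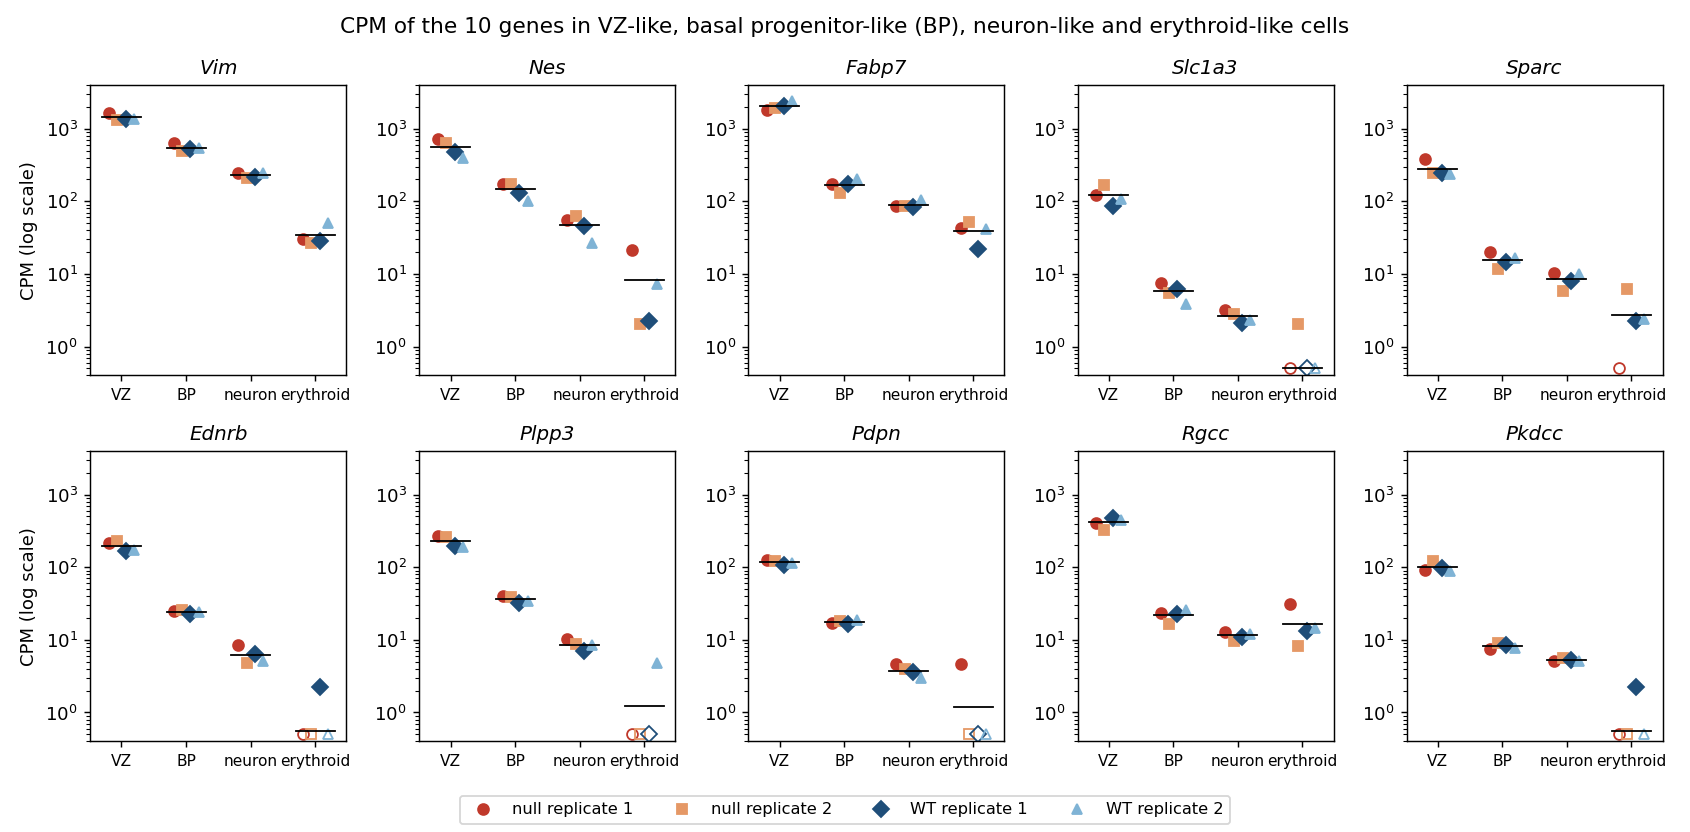
CPM (log scale) of the 10 genes in VZ-like, basal progenitor-like (BP), neuron-like and erythroid-like cells, 1 point per library, with the mean of the 4 libraries as a line and open points drawn at the bottom of the axis for libraries with no UMI. All 10 genes step down from VZ-like to neuron-like cells in every library, Vim from 1328 to 1653 CPM down to a mean of 229 CPM, and for Rgcc the erythroid-like points lie around the neuron-like ones.

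The part of the decline that fell on the first step differed between the genes. On the log2 scale, Fabp7, Slc1a3, Sparc, Rgcc and Pkdcc lost 70.9% to 87.7% of their total VZ-like to neuron-like decline by the basal progenitor-like stage, over 4 libraries. For Vim, Nes, Ednrb, Plpp3 and Pdpn that part was 49.7% to 66.9%. The ranges of the 2 sets did not overlap, but the sets were formed from these values and were not tested. The second step also rests on neuron-like levels. By the intervals given below, only Vim had a share of cells with a UMI above that of erythroid-like cells in all 4 libraries. A level of free RNA in neuron-like cells would shrink the second step and raise the part of the first, and this was not tested. Vim was lower by 1.39 ± 0.04 (SD, n = 4 libraries) on the log2 scale after the first step and by a further 1.25 ± 0.08 after the second. Pkdcc, at the other end, was lower by 3.61 ± 0.11 and then by 0.63 ± 0.08.

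The level that free RNA gives was examined in cells that should lack these genes. Every cell was thinned to 3000 UMIs, and the share of cells with at least 1 UMI was compared with erythroid-like cells, the red cell precursors, of which each library held 31 to 45. A Vim UMI was found in 90.8% to 94.8% of VZ-like, 71.5% to 78.5% of basal progenitor-like and 39.1% to 42.2% of neuron-like cells, against 5.56% to 15.6% of erythroid-like cells. The exact 95% Clopper-Pearson interval of Vim in neuron-like cells lay above that in erythroid-like cells in 4 of 4 libraries. These intervals cover counting error only. A Fabp7 UMI was found in 19.9% to 26.1% of neuron-like cells, and in 8.33% to 19.5% of erythroid-like cells. Nes was found in 6.58% to 14.7% of neuron-like and 2.44% to 8.89% of erythroid-like cells, with intervals apart in 1 library, null replicate 2. Rgcc was found in 2.57% to 4.16% and 0% to 4.44%. For Fabp7 the intervals overlapped in every library. For Rgcc and the other 6 genes the shares could not be compared, since at 31 to 45 cells the interval of a count of 0 already reached 7.87% to 11.2%, above their shares of 0.477% to 4.16% in neuron-like cells. In summed UMIs, Plpp3 was at 7.10 to 10.1 CPM in neuron-like and 0 to 4.84 CPM in erythroid-like cells of the 4 libraries, Ednrb at 4.75 to 8.39 and 0 to 2.22 CPM, Pkdcc at 5.04 to 5.61 and 0 to 2.22 CPM and Slc1a3 at 2.10 to 3.21 and 0 to 2.05 CPM. The erythroid-like values of these genes rest on very few UMIs, with none in 3 of the 4 libraries for each, so they do not show levels above background. Nes was at 26.4 to 62.5 CPM in neuron-like and 2.05 to 21.2 CPM in erythroid-like cells. For Fabp7 these levels were 82.1 to 103 and 22.2 to 51.3 CPM. Whether both cell types hold the same part of free RNA was not tested. Without thinning, Vim was in 54.0% to 61.9% of neuron-like and 24.4% to 29.0% of erythroid-like cells, and Fabp7 in 34.3% to 40.8% and 22.2% to 43.9%. Median depths were 5500 to 8206 UMIs in neuron-like and 9932 to 13003 in erythroid-like cells. Thinning evens out the UMIs per cell but not the part of them that is free RNA, which was not measured. Barcodes under 100 UMIs, which hold free RNA, carried Fabp7 at 697 to 935 CPM, and neuron-like cells held 10.8% to 12.5% of that. For Vim neuron-like cells held 35.2% to 40.7% of the level in such barcodes.

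Vim was not spread evenly among neurons. It was at 630 and 562 CPM in neuron-like clusters 19 and 1, both led by St18 and holding the highest scores for basal progenitor markers among the neuron-like clusters. In the other 10 neuron-like clusters it was at 65.2 to 233 CPM. The other filament gene, Nes, ranged from 29.8 to 104 CPM, again with cluster 19 highest. Outside the neural lineage, Sparc stood apart. Microglia-like cells, 13 to 36 per library, held Sparc at 1321 to 1880 CPM, which was 423% to 762% of the VZ-like level, and 60.0% to 76.9% of them had a Sparc UMI after thinning. That cluster was led by the complement genes C1qa, C1qb and C1qc, and also by Rgs5, a gene of mural cells, the contractile cells on small vessels. Its 8 mural and mesenchymal markers summed to 734 to 1876 CPM per library, against 5.33 to 6.92 CPM in VZ-like cells. Their part in the Sparc level was not tested. The other 9 genes were lower in microglia-like than in VZ-like cells in 4 of 4 libraries.

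To measure the decline on cells chosen without any of the 10 genes, cells were gated on UMIs of other genes after thinning. The genes themselves were chosen with earlier results of these data known, so gate calls do not independently test the direction of the decline. The radial glia gate took cells with at least 2 UMIs of Hes1 and Hes5 and none of Dcx, Stmn2 and Gap43. The basal progenitor gate took at least 2 UMIs of basal progenitor markers such as Dll1 and Gadd45g and none of the others, and the neuron gate at least 2 of Dcx, Stmn2 and Gap43 and none of Hes1 and Hes5. The gates held 1082, 844 and 11202 cells, and unthinned UMIs were summed per gate and library. All 10 genes passed as higher in the radial glia gate than in the neuron gate by the quasi-likelihood test of edgeR, with p-values adjusted by Benjamini-Hochberg and the library as a block. So did 36.5% of the 13005 genes tested, while 37.6% were lower, 74.2% passed in either direction and 75.8% had an unadjusted p under 0.05, and the median log2 fold change was 4.27 over the 10 genes and -0.03 over all genes. Against the basal progenitor gate all 10 were higher as well, where 21.7% of 10655 genes were higher, 21.1% lower and 42.8% passed either way, with medians of 2.24 and 0.01.

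Slc1a3 had the largest fold over neurons among the 10, with a log2 fold change of 5.09 ± 0.09 (SE), or 34.1-fold. It was at 83.3 to 164 scaled CPM in the radial glia gate and at 2.80 to 4.38 in the neuron gate, scaled meaning CPM after the trimmed mean of M-values (TMM) normalization of the fit. The groups did not come near each other. Rgcc followed at 4.98 ± 0.05 and Ednrb at 4.56 ± 0.08. Vim had the smallest at 4.01-fold, from 1165 to 1549 scaled CPM down to 262 to 366. Nes lay next to it at 2.99 ± 0.04. The remaining genes lay between 3.73 ± 0.09 for Pkdcc and 4.48 ± 0.11 for Sparc.

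Over basal progenitors the order differed. Fabp7 led with 3.28 ± 0.05, or 9.69-fold, from 1940 to 2893 scaled CPM in the radial glia gate to 207 to 247 in the basal progenitor gate. Slc1a3 was at 3.06 ± 0.11, Rgcc at 2.93 ± 0.08 and Sparc at 2.68 ± 0.08. Vim was again lowest at 1.17 ± 0.04, below Nes at 1.63 ± 0.05. The membrane genes Pdpn, Plpp3 and Ednrb followed at 1.89 ± 0.09, 1.93 ± 0.07 and 2.11 ± 0.08, of which Pdpn and Plpp3 differed by less than their errors. The gates and classes overlapped in part. Of the 1082 cells of the radial glia gate 210 were basal progenitor-like, and of the 844 of the basal progenitor gate 113 were VZ-like. Of the 11202 of the neuron gate 2344 were basal progenitor-like. Fabp7 did not lead between the cluster classes. There the mean log2 decline from VZ-like to basal progenitor-like cells was 4.37 for Slc1a3, 4.23 for Rgcc and 4.14 for Sparc. It was 3.61 for Pkdcc and 3.60 for Fabp7.

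**Figure D2:**
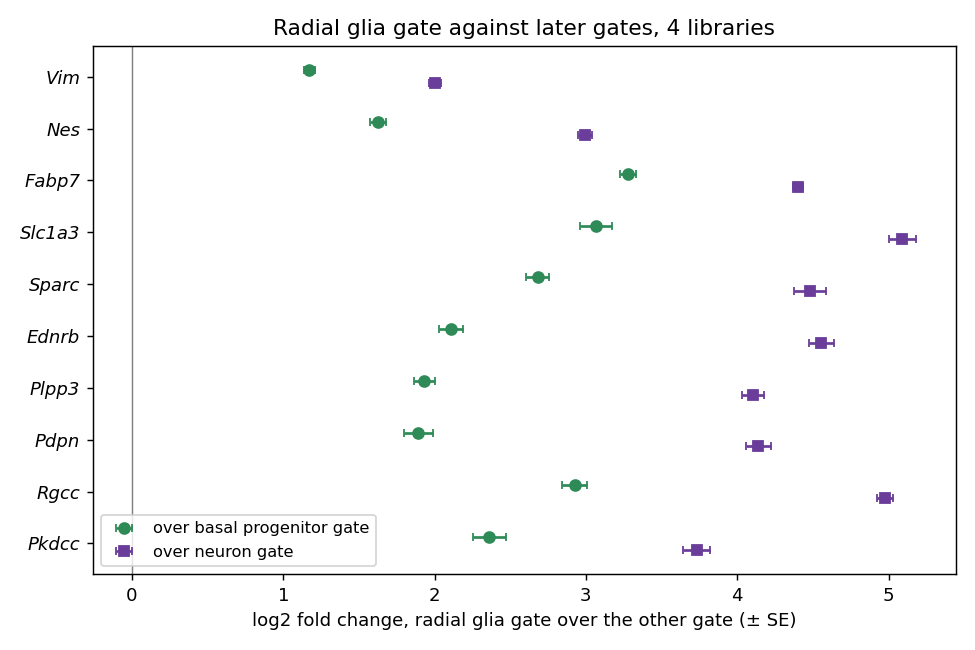
log2 fold changes (x axis, with SE) of the 10 genes in the radial glia gate over the basal progenitor gate and over the neuron gate, from sums of 4 libraries. Every point lies above 0, with Vim lowest in both comparisons, at 1.17 over basal progenitors, and Slc1a3 highest over neurons at 5.09.

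The 26 other radial glia genes of a fixed list moved mostly with the 10. Against the neuron gate 19 of the 24 tested were higher and 3 lower, with a median log2 fold change of 2.46. Aldh1l1, a folate enzyme and astrocyte marker, led with 5.11 ± 0.22, followed by Mfge8 at 4.60 ± 0.08 and the proteoglycan Bcan at 4.49 ± 0.14. The 3 that were lower were Fabp5, the glutamate transporter Slc1a2 and the adhesion gene Cdh2. Slc1a2 thus went opposite to Slc1a3. By role, 4 of 6 lipid and glutamate genes, 5 of 6 adhesion and matrix genes, 4 of 4 transcription factors, 3 of 4 enzymes and 3 of 3 membrane and RNA-binding genes were higher. The filament gene Synm, at -0.19 ± 0.42, did not pass, and Gfap, the other filament gene of the list, was too low to be tested. Against the basal progenitor gate 18 of 22 were higher and 1, Fabp5, was lower, with Aldh1l1 at 5.27 ± 0.30 and Clu at 5.17 ± 0.29.

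Partners and relatives of the 10 genes mostly went the other way. The neuronal filament genes Ina, Nefl and Nefm, 3 of 3 tested, were lower in the radial glia gate than in the neuron gate, Ina by a log2 fold change of -4.65 ± 0.09 and Nefl by -3.67 ± 0.18. Of 5 relatives, Sparcl1 was higher at 3.65 ± 0.14, like Sparc, while Plpp1, Fabp3 and Slc1a1 were lower, unlike Plpp3, Fabp7 and Slc1a3. In the endothelin system 2 of 6 genes were abundant enough to test, both of them converting enzymes: Ece2 was higher and Ece1 lower. The ligands Edn1, Edn2 and Edn3 and the receptor Ednra did not exceed 0.577 CPM in any of the 3 classes of any library, so Ednrb was present in these cells with its ligands barely detected. Against the basal progenitor gate 1 of 7 was higher, Sparcl1 at 2.18 ± 0.16, and 2 were lower, Ina and Nefm, the latter at -0.83 ± 0.15; Plpp2, at 0.72 ± 0.34, did not pass (adjusted p = 0.0843).

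VZ-like cells were not uniform. They fell into 4 clusters: cluster 7, led by Ccnd1, cluster 13, led by Rgcc and Hes5 with an S phase histone gene among its leaders, cluster 16 of low depth at 0.586 times its libraries' median, and cluster 18, led by Fabp7, Olig1, Bcan, Slc1a3 and Sparcl1. Fabp7 was at 6235 to 9456 CPM in the Olig1 cluster 18 over the 4 libraries and at 709 to 1464 CPM in the other 3 clusters, which did not overlap. Cluster 18 held 117 of 872, 90 of 511, 67 of 543 and 69 of 428 VZ-like cells in null replicates 1 and 2 and WT replicates 1 and 2, but 42.6% to 56.6% of their Fabp7 UMIs and 31.2% to 47.0% of their Slc1a3 UMIs over the libraries. Slc1a3 was at 275 to 467 CPM there, against 61.3 to 131 CPM in clusters 7 and 13. Ednrb at 367 to 521 CPM and Plpp3 at 337 to 494 CPM were likewise above their ranges in every other VZ-like cluster. So was Pdpn, at 156 to 183 CPM in cluster 18 and 106 to 131 CPM in clusters 7 and 13.

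Pkdcc ran opposite. It was at 32.7 to 53.6 CPM in cluster 18, below the 95.1 to 160 CPM of clusters 7 and 13. Vim, Nes, Sparc and Rgcc in cluster 18 overlapped their ranges in cluster 7, and Rgcc had its highest median in cluster 13, 561 CPM, in a range of 413 to 657 CPM that overlapped cluster 18. In the low-depth cluster 16, Nes, Slc1a3, Sparc, Ednrb, Plpp3, Pdpn and Pkdcc were below their ranges in clusters 7 and 13. There Vim at 1145 to 1677 CPM and Fabp7 at 709 to 1315 CPM overlapped both of these clusters, and Rgcc at 162 to 345 CPM overlapped cluster 7. Since the 10 genes were left out of the clustering but its other genes move with them, these values describe the clusters and test nothing.

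**Figure D3:**
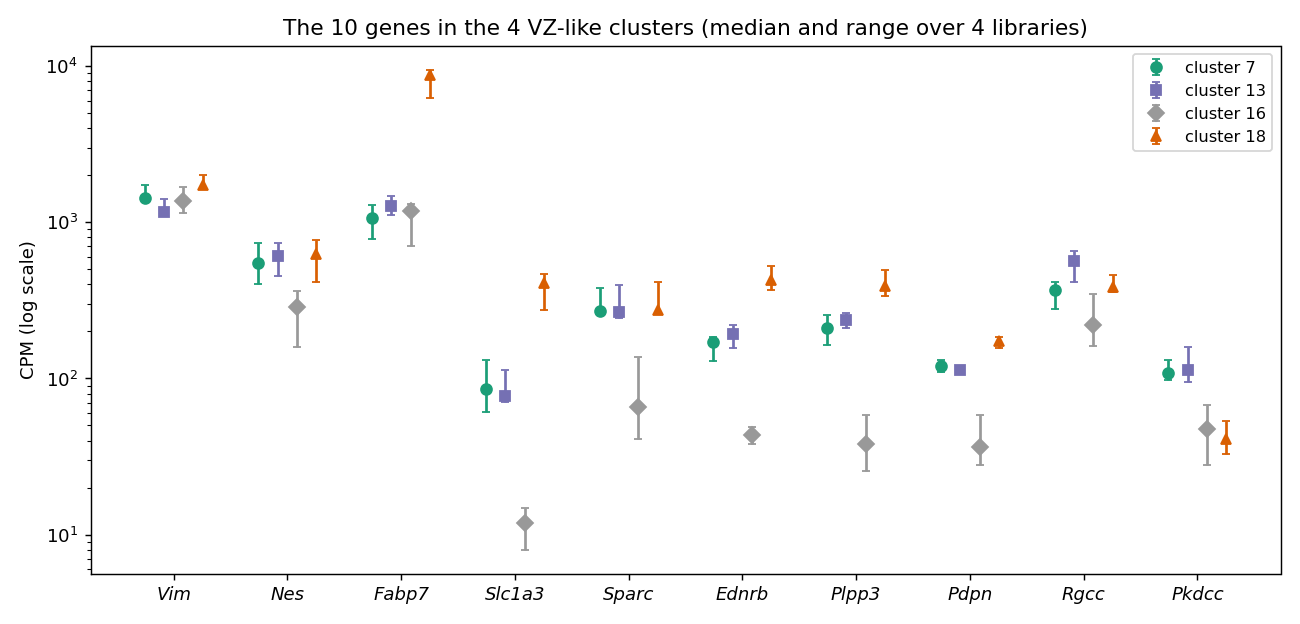
CPM (log scale) of the 10 genes in the 4 VZ-like clusters, as the median (point) and the range (bar) over 4 libraries. Cluster 18 lies above the other clusters for Fabp7 (6235 to 9456 CPM), Slc1a3, Ednrb, Plpp3 and Pdpn, and below clusters 7 and 13 for Pkdcc.

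The division within VZ-like cells also showed in the correlation of the genes. Over 83 sums of UMIs per cluster and library, all 45 pairs of the 10 genes correlated positively, with r from 0.69 to 0.94 on the log2 scale and a median of 0.86. Over the 16 VZ-like sums, r ranged from -0.51 to 0.98 with a median of 0.58. Fabp7 with Pkdcc was the lowest pair, Vim with Pkdcc followed at -0.41, and Slc1a3 with Ednrb was the highest. The sums share libraries and depth, and r is given as a description. The genes most like the mean of the 10 over the 83 sums were Hes5 (r = 0.96), Acaa2 (0.95), Dbi (0.94), Nrarp (0.94) and Psat1 (0.94), of which Hes5 was also a naming marker of VZ-like cells. Acaa2 is an enzyme of fatty acid oxidation, Nrarp a feedback regulator of Notch signalling and Psat1 an enzyme of serine synthesis.

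Whether the genes varied with the cell cycle within VZ-like cells was asked by splitting these on mitotic genes, none of them among the 10: mitotic cells had at least 2 thinned UMIs of 8 genes such as Top2a and Ccnb1, and the other cells had none. The first group took in 1700 cells, most of the VZ-like cells, 299 cells with 1 such UMI were in neither group, and mitotic here names the genes used, not a phase. By the same edgeR test all 10 genes differed. In mitotic cells 7 were lower, where 9.13% of 10279 genes were lower, and 3 were higher, where 11% were higher. Of all genes 20.1% passed in either direction and 30.8% had an unadjusted p under 0.05. Fabp7 and Slc1a3 differed most. Fabp7 was at 1248, 1497, 1842 and 2238 scaled CPM in mitotic cells of null replicates 1 and 2 and WT replicates 1 and 2, against 4204, 2919, 3516 and 4446 in the other cells, a log2 fold change of -1.16 ± 0.07. For Slc1a3 it was -1.16 ± 0.10, for Ednrb -0.84 ± 0.08, for Sparc -0.56 ± 0.07 and for Plpp3 -0.44 ± 0.07. Vim at -0.26 ± 0.05 and Pdpn at -0.25 ± 0.09 were lower by less.

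Pkdcc was higher in mitotic cells, at 101, 120, 121 and 109 scaled CPM against 64.1, 71.8, 74.3 and 62.5 in the other cells, a log2 fold change of 0.71 ± 0.11, and all 4 mitotic sums lay above all 4 others. Nes was higher at 0.19 ± 0.06 (edgeR adjusted p = 0.0174) and Rgcc at 0.22 ± 0.06 (adjusted p = 0.0103, edgeR). Both calls were lost with DESeq2, with no library block, with libraries scaled by their totals alone (0.10 for Nes and 0.12 for Rgcc) and without null replicate 1 (0.13 and 0.15), that of Nes also without WT replicate 1 (0.16) and that of Rgcc also without null replicate 2 (0.18). Pdpn, with an adjusted p of 0.0416 by edgeR, passed under 6 of 16 alternatives. It lost its call without WT replicate 1 or 2, at -0.17 and -0.22, with DESeq2 (adjusted p = 0.254), and by edgeR with no filter (adjusted p = 0.224), no library block (adjusted p = 0.304), at least 5000 UMIs (adjusted p = 0.0677), without the low-depth and Olig1 clusters and with each of 3 other clustering seeds.

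Much of this contrast moved with the low-depth cluster 16 and the Olig1 cluster 18. Without these, an alternative chosen after seeing the data, Fabp7 at -0.13 ± 0.06, Slc1a3 at -0.23 ± 0.12, Plpp3 at -0.01 ± 0.08 and Pdpn at -0.09 ± 0.11 no longer passed (edgeR adjusted p = 0.132, 0.258, 0.961 and 0.71). Ednrb became -0.38 ± 0.09 and still passed. Sparc at -0.59 ± 0.07, Vim at -0.32 ± 0.05, Nes at 0.21 ± 0.06 and Rgcc at 0.23 ± 0.07 were as large as before, and Pkdcc stayed higher at 0.47 ± 0.12. In that subset 6 of the 10 genes passed, where the calls among all genes went from 2066 of 10279 tested to 1005. Clustering was repeated with 3 other random seeds. Pdpn lost its call under all 3, and Vim, at -0.13 under both, lost it under seeds 1 and 2, while the other genes kept theirs.

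Of the other radial glia genes, in all VZ-like cells, 13 of 21 tested were lower in mitotic cells and 1, the gap junction gene Gja1, was higher. Apoe at -1.99 ± 0.09 and Bcan at -1.95 ± 0.12 were among those that changed most. Of 6 partners and relatives tested, Sparcl1 was lower at -1.93 ± 0.16 and Ina at -0.61 ± 0.20, while Plpp2 at -0.86 ± 0.37 and Ece2 at -0.63 ± 0.25 did not pass.

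**Figure D4:**
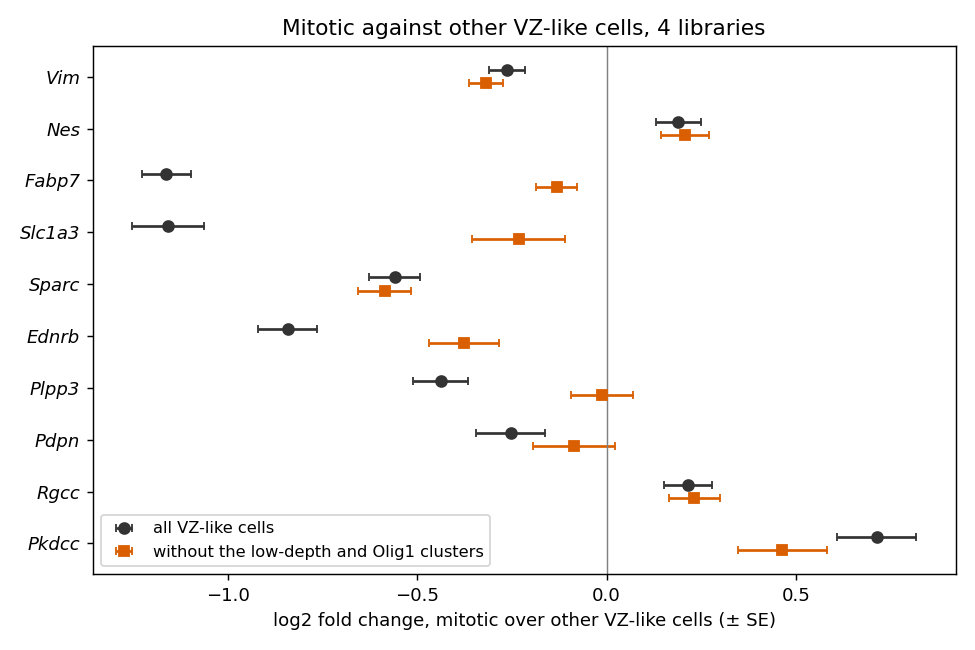
log2 fold changes (x axis, with SE) of the 10 genes in mitotic over other VZ-like cells, in all VZ-like cells and without the low-depth and Olig1 clusters. Fabp7 moves from -1.16 to -0.13 when the 2 clusters are left out, while Sparc, at -0.56 and -0.59, does not move by more than its error, and Pkdcc stays above 0.

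Null and WT libraries were compared within each class, to ask whether loss of St18 changed these genes. By edgeR 0 of the 10 genes passed in any class. In VZ-like cells 3.02% of 12088 genes passed, 2.33% lower and 0.687% higher in null, and 4 of the 10 and 21.7% of genes had an unadjusted p under 0.05. Fabp7 and Rgcc came nearest among the 10. Fabp7 was at 1752 and 1707 scaled CPM in the null libraries, replicates 1 and 2, and at 2193 and 2569 in the WT libraries. Both null libraries lay below both WT libraries, and the log2 fold change was -0.46 ± 0.12 (adjusted p = 0.0638, edgeR). Rgcc was at 388 and 297 scaled CPM in the null and at 513 and 487 in the WT libraries, a log2 fold change of -0.55 ± 0.15 (adjusted p = 0.0704, edgeR).

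The calls of both genes turned on the settings. Fabp7 passed under 7 and Rgcc under 8 of 18 alternatives, with adjusted p from 8.53e-06 to 0.691 and from 2.54e-06 to 0.455. DESeq2 called 3 of the 10 genes in VZ-like cells, and 627 of all 12088 genes tested. By DESeq2 Fabp7 at -0.47 (adjusted p = 0.00808) and Rgcc at -0.56 (adjusted p = 0.00668) were lower, and Nes at 0.44 (adjusted p = 0.0381) was higher in null. With 1 library left out, a genotype rests on a lone library, and the calls among the 10 genes and among all genes both moved, as given at the end. Over the 18 alternatives the log2 fold change ranged from -0.57 to -0.25 for Fabp7 and from -0.76 to -0.34 for Rgcc. With libraries scaled by totals alone the median log2 fold change of all genes was 0.23 in VZ-like, 0.16 in basal progenitor-like and 0.14 in neuron-like cells, against 0.014, -0.0061 and -0.0038 under TMM. Under it Fabp7 at -0.25 and Rgcc at -0.34 were not called, but Nes at 0.66, Slc1a3 at 0.58, Plpp3 at 0.44 and Ednrb at 0.40 were called higher. All genes called in VZ-like cells were split as 83 higher and 282 lower in null under TMM and as 1300 and 221 under totals alone.

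Nes lay above in null. It was at 699 and 578 scaled CPM in VZ-like cells of the null libraries and at 516 and 421 in those of the WT libraries, a log2 fold change of 0.45 ± 0.15 that did not pass by edgeR (adjusted p = 0.114). In basal progenitor-like cells it was at 173 and 156 against 139 and 108 scaled CPM (0.41 ± 0.15), and in neuron-like cells at 53.6 and 57.5 against 48.0 and 27.4 (0.56 ± 0.22). The neuron-like cells lay partly in different clusters by genotype: cluster 0, led by Epha5 and Maf, held 11.3% and 19.0% of all cells of the null libraries and 6.32% and 3.63% of the WT libraries, and cluster 2, led by Npy and Maf, 5.97% and 1.70% against 14.1% and 11.7%. Over the libraries the median of Nes was 57.2 CPM in cluster 0 (27.1 to 71.2) and 45.0 CPM in cluster 2 (22.6 to 47.3). For Fabp7 it was 74.7 CPM (57.6 to 97.3) and 104 CPM (91.0 to 151). The ranges of the clusters overlapped for both genes, and the part of this shift in the neuron-like genotype values was not tested. Both null libraries were thus above both WT libraries for Nes in all 3 classes. Fabp7 was at 85.5 and 79.05 scaled CPM in neuron-like cells of the null libraries and at 87.5 and 107 in those of the WT libraries, so both null libraries were below both WT libraries in all 3 classes on the TMM scale, but in neuron-like cells the unscaled CPM overlapped, at 86.9 and 85.8 in null and 82.1 and 103 in WT. Such absence of overlap was found for 6 of the 10 genes in VZ-like, 5 in basal progenitor-like and 4 in neuron-like cells, and for 53.6%, 49% and 51.2% of all genes tested, so it did not set these genes apart.

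In basal progenitor-like cells 0.0157% of 12762 genes passed by edgeR, all of them higher in null (0.0157%), and 2 of the 10 had an unadjusted p under 0.05, where 13.6% of genes did; DESeq2 called 0 of the 10. Fabp7 was at -0.46 ± 0.18 and Rgcc at -0.43 ± 0.21. Without null replicate 1 they were at -0.74 and -0.76, without null replicate 2 at -0.21 and -0.14, and with marker gates in place of clusters at -0.10 and -0.01. Nes there was at 0.24 without WT replicate 2. The Vim value of -0.08 ± 0.18 became -0.34 without null replicate 1 and 0.15 without null replicate 2. In neuron-like cells 0.0737% of 13566 genes passed, 0.0295% higher and 0.0442% lower in null, and 1 of the 10 had an unadjusted p under 0.05, against 17% of genes, and DESeq2 called 0 of the 10. Here Vim was at -0.29 and Sparc at -0.80 without null replicate 1, and Nes at 1.02 without WT replicate 1 and at 0.21 without WT replicate 2. A direct test of whether the decline from VZ-like to neuron-like cells differed between genotypes passed for 0 of the 10 genes and 0% of 13850 genes by edgeR, with 2 of the 10 and 8.25% of genes at an unadjusted p under 0.05. DESeq2 called 0 of the 10 genes and 3 genes in all. Sparc at -0.52 ± 0.14 and Rgcc at 0.32 ± 0.12 came nearest (edgeR adjusted p = 0.281 and 0.489), and Sparc passed, at -0.56, when low counts were not filtered. With clustering seeds 1 and 2 Sparc was at -0.22 and -0.21 and did not pass (edgeR adjusted p = 0.717 and 0.719), and with marker gates Rgcc was at 0.15.

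**Figure D5:**
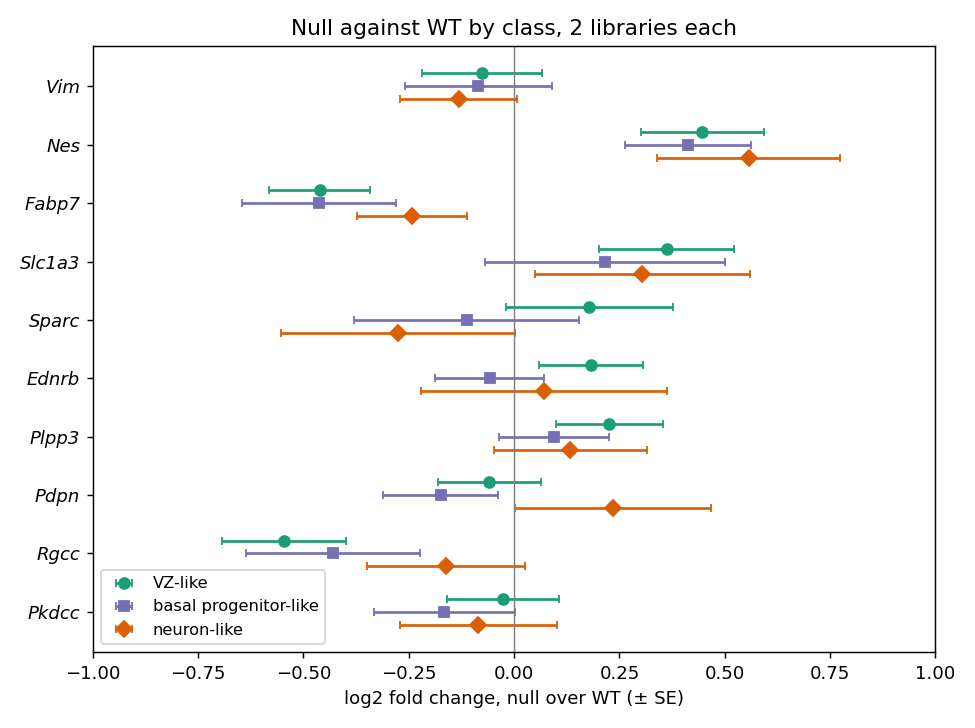
log2 fold changes (x axis, with SE) of null over WT for the 10 genes in VZ-like, basal progenitor-like and neuron-like cells, 2 libraries per genotype. No point passed by edgeR. The Fabp7 points (-0.46, -0.46 and -0.24) lie below 0 and the Nes points (0.41 to 0.56) above it in all 3 classes.

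Several measures of the libraries moved with genotype. Ribosomal protein genes took 15.8% and 14.4% of VZ-like UMIs in null and 18.5% and 18.4% in WT libraries, mitochondrial genes 3.63% to 4.17% in null and 3.02% to 3.16% in WT, and the single gene Gm42418 0.771% and 1.46% in null and 1.81% and 1.80% in WT. Median depth was higher in both null libraries in all 3 classes, at 10090 and 11609 UMIs per VZ-like cell against 9098 and 8631 in WT. In VZ-like cells the 7 erythroid markers summed to 58.7 to 62.1 CPM in null and to 76.1 to 4015 CPM in WT libraries, and the 5 markers of the caudal ganglionic eminence to 114 to 124 CPM in null and 58.8 to 69.3 CPM in WT. Markers of oligodendrocyte precursors, at 28.6 to 75.3 CPM in null and 15.8 to 39.6 in WT, and of endothelial cells, at 6.92 to 12.0 and 9.26 to 14.8, overlapped. In VZ-like cells, where Fabp7 was lower in cells with mitotic genes, cycling markers did not overlap, at 4204 to 4476 CPM in null and 3560 to 4067 in WT. Basal progenitor markers, at 1147 to 1195 and 944 to 945, and VZ-like markers, at 1857 to 1965 and 1678 to 1776, did not overlap there either. All these marker sums are CPM on library totals, a scale on which the median gene was also higher in null in all 3 classes. On the TMM scale 53.6% of all genes, each taken alone, in VZ-like and 51.2% in neuron-like cells did not overlap. The marker sums are over several genes and on library totals, where the share of all genes without overlap was not computed. Absence of overlap is therefore not read as setting these lists apart. In neuron-like cells the VZ-like markers were at 174 to 183 CPM in null and 143 to 146 in WT, and the basal progenitor markers at 500.4 to 554 and 403 to 459. The cycling markers were at 393 to 400.3 and 327 to 331, and those of the lateral ganglionic eminence at 479.7 to 507 and 319 to 462. All of these were higher in both null libraries, as Nes was. So were the neuron markers themselves in neuron-like cells, at 7431 to 7770 CPM in null and 6844 to 7117 in WT. There the pallial markers summed to 62.4 CPM in null replicate 2 and to 1.81 to 8.76 CPM in the other 3 libraries, and those of the caudal ganglionic eminence to 178 to 234 CPM in null and 111 to 156 in WT. The part of these differences in the values of the 10 genes was not tested. The Olig1 cluster 18, where Fabp7 was highest, made up 13.4% and 17.6% of VZ-like cells in null and 12.3% and 16.1% in WT libraries, which overlapped. As a share of all cells it did not overlap, at 1.86% and 2.39% in null and 1.54% and 1.78% in WT. Without clusters 16 and 18 Fabp7 was at -0.53 ± 0.14 and Rgcc at -0.61 ± 0.15, and both were called (edgeR adjusted p = 0.0493 and 0.0318). The low-depth cluster 16 made up 10.1% and 27.2% of VZ-like cells in null and 16.8% and 20.3% in WT libraries, and without it alone Rgcc was called at -0.57 ± 0.15 and Fabp7, at -0.51 ± 0.16, was not. With 3 other random seeds of the clustering 0 of the 10 genes were called in each class.

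Of the other radial glia genes, 1 of 24 tested in VZ-like cells passed, Dbi, the acyl-CoA binding protein, which was lower in null by a log2 fold change of -0.54 ± 0.11. The largest changes in that list, Synm at -1.13 ± 0.52, Pax6 at 0.96 ± 0.61 and Aldoc at 0.75 ± 0.27, did not pass. Synm was at only 0.721 to 1.85 CPM in these cells. In basal progenitor-like cells 0 of 22 passed, with Apoe at -0.74 ± 0.16, Dbi at -0.52 ± 0.16 and Fabp5 at -0.44 ± 0.19. In neuron-like cells 0 of 23 passed, with Gja1 at 1.02 ± 0.42, Synm at 0.67 ± 0.30 and Ptn at -0.53 ± 0.14. Gja1 was at only 0.435 to 1.51 CPM there. Among the partners and relatives 0 passed in each class, of 9, 9 and 10 tested. Fabp3 was 2.83-fold lower in null in VZ-like cells (edgeR adjusted p = 0.0849). Its levels there were low, at 1.74 and 2.02 CPM in the null and 2.96 and 6.64 CPM in the WT libraries. In basal progenitor-like and neuron-like cells it was at -0.57 ± 0.27 and -0.61 ± 0.20. Next came Plpp1 at -0.56 ± 0.32 and Plpp2 at -0.47 ± 0.29 in VZ-like cells, Plpp1 and Nefl at -0.62 ± 0.27 and -0.61 ± 0.33 in basal progenitor-like cells, and Plpp2 and Nefm at -0.49 ± 0.20 and 0.36 ± 0.15 in neuron-like cells. In the test of the decline 0 of 25 other radial glia genes passed, with Tnc at -1.93 ± 1.26, Synm at 1.73 ± 0.63 and Pax6 at -1.33 ± 0.41, and 0 of 10 partners and relatives, with Fabp3 at 0.88 ± 0.35, Slc1a1 at -0.56 ± 1.07 and Plpp1 at 0.47 ± 0.33.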

How the data were processed

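RNA from the MGE of e14.5 embryos was measured by 10x Genomics chemistry in 2 null and 2 WT libraries. The deposited files hold UMI counts per gene and barcode, unfiltered, which the authors made with Cell Ranger on GRCm38; the processing notes give version 5.0.1 and the matrix headers version 4. Cells with at least 3000 UMIs, 200 genes and at most 10% mitochondrial UMIs were kept, and the highest Scrublet scores (scanpy 1.11.5) were left out at 0.8% per 1000 cells, since the caller's own threshold marked at most 0.0443% of cells. Cells were clustered in Seurat 5.3.0 (2000 variable genes less the 10 members, cell cycle difference regressed out, 49 principal components, Louvain resolution 1.4, 27 clusters) and named from marker lists; a cluster with over 20% of high doublet scores, a limit set after seeing the data, was left unnamed. For the shares and gates, cells were thinned to 3000 UMIs. UMIs were summed per library and group of cells and tested with edgeR 4.0.16 (filterByExpr, TMM, quasi-likelihood test, two-sided, Benjamini-Hochberg over all genes tested, threshold 0.05), with DESeq2 1.42.0 as an alternative. The design had the library as a block between gates and between mitotic and other cells, and genotype alone within a class. The fits were tested on simulated data. Named were the 10 genes in every comparison, and the 3 largest changes of each further list, less items that are not reported here. The 10 genes and the lists were chosen with earlier results of these data known. Gene positions are those of GENCODE M21, which held 99.6% of the feature IDs, and promoters those of RefSeq.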

Additional observations from a re-analysis of the deposited data

How the results depend on the processing

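The decline of the 10 genes over stages held throughout: against both gates all 10 stayed higher and called under 13 alternatives each, 130 of 130 values, among them DESeq2, other scalings, no low-count filter, a gate at 3 UMIs, at least 5000 UMIs and each library left out. The count of all genes called against the basal progenitor gate, 4558, moved to 2647 with DESeq2, 8283 with cluster classes in place of gates and 2464 with no library block. In the mitotic comparison 132 of 160 values kept their direction and call and 28 lost the call. Its 2066 genes moved to 941 with DESeq2, 840 with no library block, 1005 without the low-depth and Olig1 clusters and 1369 to 1983 with 1 library left out, and its 10 members to 4 with no library block and 6 without the 2 clusters. The genotype calls were the least stable. In VZ-like cells the 365 genes became 627 with DESeq2, 1521 with library totals alone, 1043 with no filter, 575 with no cells left out for doublet scores, 201 with marker gates, 185 in cells called male, 589 without the Olig1 cluster and 42 to 3046 with 1 library left out. The 0 called members there became 3 with DESeq2, 4 with library totals alone, 3 with no filter, 2 with no cells left out for doublet scores, 2 without the low-depth and Olig1 clusters, 1 without the low-depth cluster, 2 without the Olig1 cluster and 0 to 5 with 1 library left out. In basal progenitor-like cells the 2 genes became 183 with DESeq2, 8 with library totals alone, 465 with no filter, 23 with marker gates, 0 in male cells and 24 to 4375 with 1 library left out, which also gave 0 to 5 members. The Vim value there ranged from -0.34 without null replicate 1 to 0.15 without null replicate 2, a reversal. In neuron-like cells the 10 genes called became 293 with DESeq2, 193 with library totals alone, 3 with marker gates, 1 in male cells and 65 to 2831 with 1 library left out, which gave 0 to 2 members. For the genotype difference of the decline the 0 genes became 3 with DESeq2, 9 with RLE scaling, 6 with library totals alone, 139 with no filter (and 1 member, Sparc), 10 with no cells left out for doublet scores, 25 with at least 5000 UMIs, 2 with marker gates, 1 with the unnamed cluster counted as neuron-like, 24 without the low-depth and Olig1 clusters, 60 without the low-depth and 2 without the Olig1 cluster, 13 and 8 with clustering seeds 1 and 2, and 4 to 104 with 1 library left out. The causes were not tested. Cluster borders depend on the random seed and may also depend on the numerical library used, and Fabp7 and Rgcc lie near the genotype threshold in VZ-like cells. The mean share of cells with a UMI over the 10 genes went from 48.1% to 69.9% in VZ-like, from 17.2% to 31.0% in basal progenitor-like and from 8.77% to 14.51% in neuron-like cells without thinning, and to 8.37% in neuron-like cells of at least 5000 UMIs. The alternatives on the unnamed cluster, on the low-depth and Olig1 clusters and on clustering seeds were chosen after seeing the data. With 1 library left out, the lone library of a genotype is assumed to vary like the others. No paired analysis was possible because the labels carry no replicate numbers, which were given in accession order. The 31 to 45 erythroid-like cells per library limit the comparison of shares with background, which could not be made for 7 of the 10 genes.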
